A study of Homo sapiens with 4 samples.

Results

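The RUNX transcription factors, their partner and the ETO corepressors were described here across 4 RNA-seq libraries. The members were 7 genes, taken by symbol from the deposited table of 58365 rows: RUNX1, RUNX2 and RUNX3, the shared partner CBFB, and the ETO family genes RUNX1T1, CBFA2T2 and CBFA2T3. Each symbol had 1 row. RNA came from the human embryonic stem cell line H1 at day 8 of stepwise hematopoietic differentiation. All groups received activin A at 40 ng/ml with BMP4 at 50 ng/ml for 2 days, and then VEGF at 40 ng/ml with bFGF at 50 ng/ml for 3 days. VEGF and bFGF were kept for the last 3 days, to which SB431542, which inhibits the kinase of TGFβ type I receptors, was added in the SB group (2 libraries), while the DMSO group (2 libraries) served as the control. All cells were of 1 line, and whether the replicates were separate cultures is not given, so that p-values measure only the spread between these libraries. The study describes sorting CD31-positive cells, which the labels do not mention. PECAM1, the gene of CD31, stood between 153 and 197 FPKM in all 4 libraries. Absolute depth is unknown from FPKM, and relative depth, read from the steps of low values, was 75.3% (SB replicate 1) to 94.4% of that of SB replicate 2.

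RUNX proteins bind DNA through their Runt domain, and CBFB, which does not touch DNA itself, strengthens that binding by forming a heterodimer with them. RUNX1 is required for blood cells to arise from hemogenic endothelium, RUNX2 directs bone formation, and RUNX3 acts in T lymphocytes and sensory neurons. The ETO family proteins (RUNX1T1, also called ETO or MTG8, CBFA2T2 or MTGR1, and CBFA2T3 or ETO2) do not bind DNA on their own but bring NCOR and HDAC corepressors to transcription factors, and CBFA2T3 does so in the TAL1 complex of erythroid and megakaryocytic cells. Translocations in leukemia fuse RUNX1 to RUNX1T1 or to CBFA2T3.

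RUNX1, CBFA2T3 and RUNX3 stood higher with SB431542 within each replicate number, and RUNX1T1 and CBFA2T2 stood lower. The sign was thus the same within both numbers for 5 of the 6 tested members, against 71.5% of all tested genes. RUNX1 was the only tested member whose 2 SB libraries both lay above both DMSO libraries, as was the case for 21.5% of all tested genes. None of these differences passed the adjusted test across all genes. The levels of the ETO family genes overlapped between the groups, but the makeup of the family did not: CBFA2T3 held 35.9% and 29% of the family's FPKM in the DMSO libraries and 58.4% and 53.4% in the SB libraries. In bulk RNA, a change in the number of cells of a type and a change in RNA per cell cannot be told apart.

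FPKM, a fragment count per kilobase and library size, is scaled to transcript length, so that levels can be set side by side between genes. In the DMSO group the members ranked, by mean FPKM ± SD (n = 2), as CBFB at 38.6 ± 15.2, RUNX1 at 34.4 ± 1.19, RUNX1T1 at 28.8 ± 7.89, CBFA2T3 at 27.3 ± 15.8 and CBFA2T2 at 25.3 ± 12.8. The libraries of each neighbouring pair in this order overlapped. RUNX3 followed at 1.33 ± 1.25 and RUNX2 at 0.477 ± 0.192, far below the other members, and these 2 genes overlapped each other. In the SB group the order was RUNX1 at 61.7 ± 11.4, CBFA2T3 at 51.6 ± 27.1, CBFB at 31.3 ± 2.83, RUNX1T1 at 22.1 ± 7.87, CBFA2T2 at 17.2 ± 7.70, RUNX3 at 1.72 ± 1.61 and RUNX2 at 0.24 ± 0.0943. There, the ranges of CBFB and RUNX1T1 no longer overlapped, nor did those of RUNX3 and RUNX2. Within every library of both groups, however, CBFB was above RUNX1T1 and RUNX3 above RUNX2, so the order within these pairs did not change. Among the 14909 tested genes, RUNX1 was above 80.7% of genes in the DMSO group and above 89.4% in the SB group, and CBFA2T3 was above 76.0% and 87.1%.

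**Figure D1:**
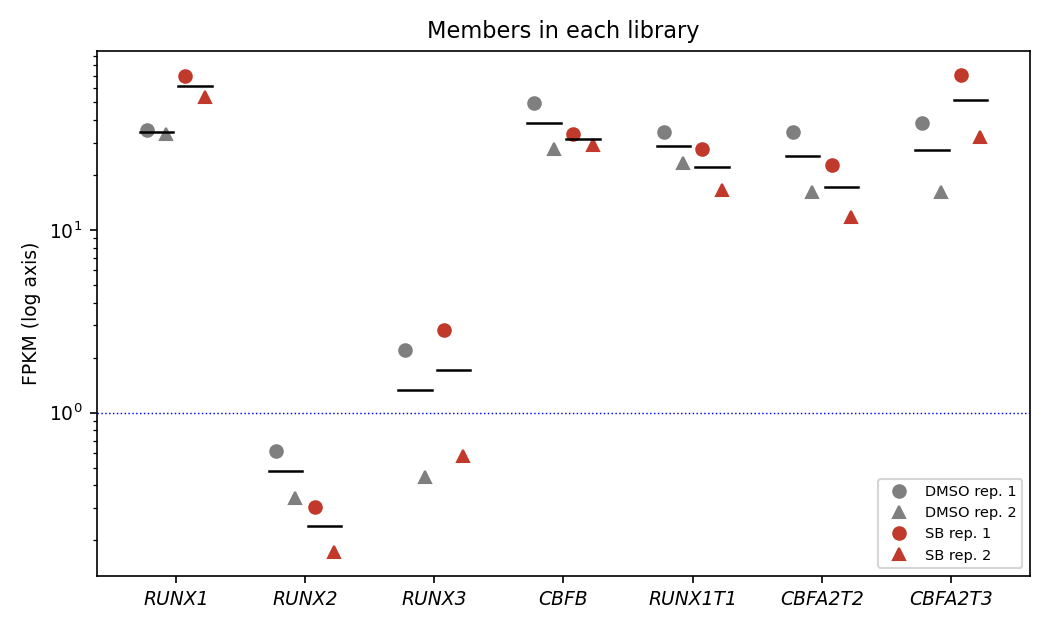
FPKM of the 7 members on a log axis, with 1 point per library (grey for DMSO, red for SB, circles for replicate 1, triangles for replicate 2), bars at group means and a dotted line at 1 FPKM. RUNX1 shows both red points above both grey points, RUNX2 stays under the line in all 4 libraries, and every member has its circle above its triangle in both groups.

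All members were compared on log2(FPKM + 1), and a difference below is SB minus DMSO on that scale unless FPKM is named. Of the 7 members, 6 passed the filter (a group mean of 1 FPKM or more in either group); RUNX2 did not and was not tested. With limma, 0 of the 6 tested members passed an adjusted p of 0.05, against 20 of 14909 genes (0.134%). At an unadjusted p under 0.05, 1 member passed (RUNX1), against 9.96% of all genes. The groups did not overlap for 1 of the 6, against 37.5% of all genes, and the difference had the same sign within both replicate numbers for 5 of the 6, against 71.5% of all genes. The median difference was -0.02 over the 6 members and 0.04 over all tested genes.

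The start regions of 4 members are shown, those of RUNX1 and CBFA2T3 because their differences from DMSO were the largest and those of RUNX2 and RUNX3 because their upstream windows hold the core letters that RUNX proteins bind. All are from RefSeq on GRCh38.p14, 5′ to 3′ along the gene's strand, and hold the bases before a start site that no annotated exon covers. Capitals mark TGTGGT or its reverse complement ACCACA. RUNX1 is from chr21:34888700-34888949 (reverse strand), CBFA2T3 from chr16:88941351-88941600 (reverse), RUNX3 from chr1:24965122-24965260 (reverse, the start farther upstream) and RUNX2 from chr6:45328080-45328156 (forward, the start farther upstream).
RUNX1: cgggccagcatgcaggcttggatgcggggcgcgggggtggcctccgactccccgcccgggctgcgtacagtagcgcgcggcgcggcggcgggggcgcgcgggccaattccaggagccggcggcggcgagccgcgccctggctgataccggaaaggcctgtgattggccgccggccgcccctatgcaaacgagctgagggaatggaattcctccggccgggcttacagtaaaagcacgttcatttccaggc
CBFA2T3: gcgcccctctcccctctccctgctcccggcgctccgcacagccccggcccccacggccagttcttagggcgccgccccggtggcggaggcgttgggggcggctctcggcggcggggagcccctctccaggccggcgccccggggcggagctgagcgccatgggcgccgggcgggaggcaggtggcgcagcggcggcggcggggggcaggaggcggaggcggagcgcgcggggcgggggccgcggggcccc
RUNX3: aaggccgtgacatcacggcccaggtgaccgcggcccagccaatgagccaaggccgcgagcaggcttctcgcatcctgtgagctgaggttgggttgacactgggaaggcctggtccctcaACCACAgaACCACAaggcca
RUNX2: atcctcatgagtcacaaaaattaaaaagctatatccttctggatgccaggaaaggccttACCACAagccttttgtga
The RUNX1 and CBFA2T3 regions are rich in GC, at 71.2% and 84.4%. Windows of 300 bases at the starts that the RefSeq table gives, 1 each for RUNX1 and CBFA2T3 and 2 each for RUNX2 and RUNX3, were searched on both strands for TGTGGT, for CAGCTG, the E-box that TAL1 dimers bind, and for AGATAA, which GATA factors bind. The 1 window of RUNX1, which lies inside the gene span and stands for 1 start only, and that of CBFA2T3 held none of them, while 17.9% of all windows hold the E-box and 10.3% AGATAA. The upstream RUNX3 window held TGTGGT 2 times and the upstream RUNX2 window 4 times, of which 1 is in the stretch printed. The other RUNX3 window and the other RUNX2 window held it 0 times, and the latter held the E-box 2 times, while 13.1% of all 35116 windows hold it at least once. These matches are letters in a sequence, and binding was not measured.

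RUNX1 (ENSG00000159216.18) lies on the reverse strand at chr21:34787801-36004667 (GRCh38) and has 17 transcripts with 15 different start sites in GENCODE release 29. It stood at 35.3 and 33.6 FPKM in DMSO replicates 1 and 2 and at 69.8 and 53.6 FPKM in SB replicates 1 and 2. Both SB libraries were higher than both DMSO libraries, and the DMSO libraries lay close together. The ratio of SB to DMSO FPKM was 1.98 within replicate 1 and 1.6 within replicate 2. The log2 difference was 0.81 (SE 0.19, 95% interval 0.31 to 1.32), with an unadjusted limma p of 0.00944 and an adjusted p of 0.28. By unadjusted p it was number 503 of the tested genes. A total per gene does not tell which of the transcripts or promoters gave the reads. The 7 other genes annotated within its locus were listed at 0.

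RUNX2 (ENSG00000124813.20), at chr6:45328157-45664349 on the forward strand, held 0.613 and 0.341 FPKM under DMSO (replicates 1 and 2) against 0.306 and 0.173 under SB431542. All 4 values were under 1 FPKM, and both SB values lay under both DMSO values. The SB to DMSO ratio of FPKM was 0.499 within replicate 1 and 0.506 within replicate 2. With no filter, the log2 difference was -0.25 with an adjusted limma p of 0.758. RUNX2 overlaps SUPT3H on the opposite strand, which reached up to 9.16 FPKM, and the use of strand in counting is not given, so that its low values are uncertain.

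RUNX3 (ENSG00000020633.18), at chr1:24899511-24965121 on the reverse strand, held 2.21 and 0.443 FPKM under DMSO against 2.85 and 0.581 under SB431542. The 2 libraries of replicate 1 were high and those of replicate 2 low, whatever the treatment. Replicate 1 exceeded replicate 2 by 4.98 times under DMSO and 4.91 times under SB431542, while SB exceeded DMSO by 1.29 times within replicate 1 and 1.31 times within replicate 2. The log2 difference was 0.20 (95% interval -1.34 to 1.74, adjusted p = 0.969). It fell to -0.38 without DMSO replicate 2 and to -0.44 without SB replicate 1, so its direction rested on how the libraries were balanced.

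CBFB (ENSG00000067955.13), at chr16:67029116-67101058 on the forward strand, held 49.3 and 27.8 FPKM under DMSO against 33.3 and 29.2 under SB431542. DMSO replicate 1 was above the other three libraries, which lay close together. The log2 difference was -0.24 (95% interval -1.04 to 0.56, adjusted p = 0.901), with -0.56 within replicate 1 and 0.07 within replicate 2. Without DMSO replicate 1 it was 0.16. CBFB was the only tested member with opposite signs within the 2 replicate numbers.

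Set against their partner, the RUNX factors stood higher in sum in both SB libraries. The summed FPKM of RUNX1, RUNX2 and RUNX3 was 38.1 and 34.4 in the DMSO libraries and 73.0 and 54.4 in the SB libraries. Divided by CBFB FPKM, this gave 0.772 and 1.24 in the DMSO libraries and 2.19 and 1.86 in the SB libraries. Both SB ratios were above both DMSO ratios (mean ± SD 2.03 ± 0.236 against 1.0 ± 0.329, n = 2 each). An exact two-sided permutation test over the libraries gave p = 0.333, the smallest that 2 against 2 libraries allow. RUNX1 made up 92.6% and 97.7% of the RUNX sum in the DMSO libraries and 95.7% and 98.6% in the SB libraries, and these groups overlapped (exact permutation p = 0.667). The difference of the mean shares was 1.99 percentage points and became -0.575 without DMSO replicate 1. A ratio of FPKM compares RNA and not protein.

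RUNX1T1 (ENSG00000079102.16) lies on the reverse strand at chr8:91954967-92103286 and has 52 annotated transcripts. It held 34.3 and 23.2 FPKM under DMSO against 27.7 and 16.5 under SB431542. Within each replicate number the SB library was lower, but SB replicate 1 was above DMSO replicate 2. The log2 difference was -0.38 (SE 0.33, 95% interval -1.23 to 0.47, adjusted p = 0.819), with -0.30 within replicate 1 and -0.46 within replicate 2. Leaving out each library in turn gave -0.74 to -0.03.

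CBFA2T2 (ENSG00000078699.21), at chr20:33490075-33650036 on the forward strand, held 34.3 and 16.2 FPKM under DMSO against 22.7 and 11.8 under SB431542. Again both SB libraries were lower than the DMSO library of their number. The log2 difference was -0.50 (SE 0.47, 95% interval -1.71 to 0.71, adjusted p = 0.839), with -0.58 within replicate 1 and -0.43 within replicate 2. Without DMSO replicate 1 it was 0.01. The replicate numbers differed more than the treatments, since replicate 1 was 2.11 times replicate 2 under DMSO and 1.92 times under SB431542.

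CBFA2T3 (ENSG00000129993.14), at chr16:88874858-88977204 on the reverse strand, held 38.5 and 16.1 FPKM under DMSO against 70.8 and 32.4 under SB431542. SB replicate 1 was the highest library, and SB replicate 2 lay below DMSO replicate 1, so the groups overlapped. The SB to DMSO ratio was 1.84 within replicate 1 and 2.01 within replicate 2. The log2 difference was 0.91 (SE 0.55, 95% interval -0.51 to 2.34, adjusted p = 0.727), which was the largest of the 6 tested members, and leaving out each library in turn gave 0.31 to 1.52. Replicate 1 was 2.39 times replicate 2 under DMSO and 2.18 times under SB431542. An antisense gene in the same region, AC092384.2, reached 1.71 FPKM at most.

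**Figure D2:**
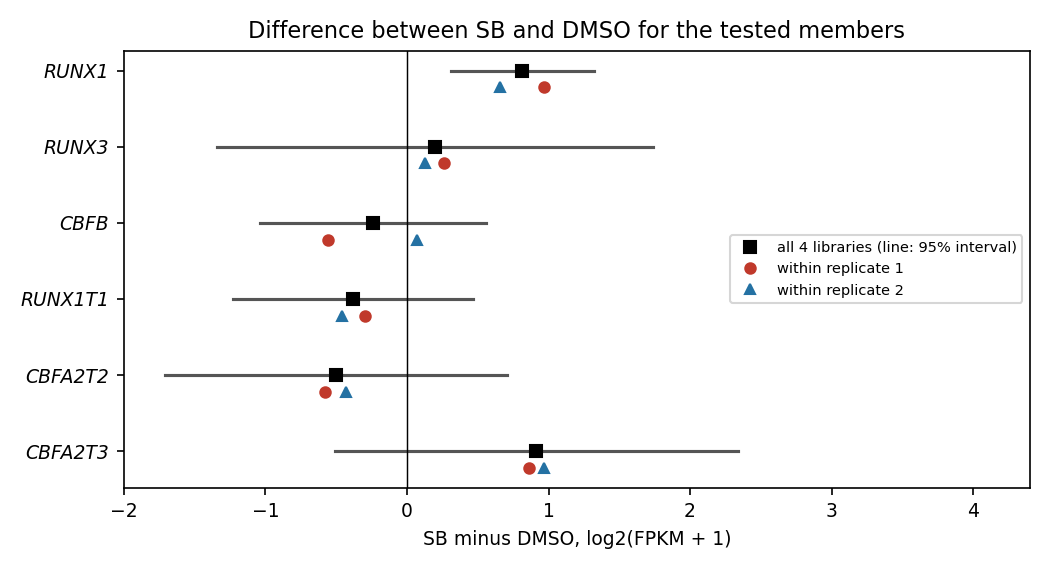
SB minus DMSO on log2(FPKM + 1) for the 6 tested members, with squares for all 4 libraries, lines for 95% limma intervals, circles for replicate 1 and triangles for replicate 2. The line of RUNX1 (0.31 to 1.32) stays above 0 and those of the other members cross 0, while only CBFB has its circle and triangle on opposite sides of 0.

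Within the ETO family the replicate numbers shifted all 3 genes the same way, and shares of the family sum were closer between replicates than the FPKM values were. The sum was 107 and 55.5 FPKM under DMSO against 121 and 60.8 under SB431542. CBFA2T3 made up 32.5% ± 4.86 of it under DMSO and 55.9% ± 3.58 under SB431542 (mean ± SD, n = 2 each), a difference of 23.4 percentage points that leaving out single libraries moved between 20.0 and 26.9. The share of CBFA2T2 was 32.0% and 29.2% under DMSO and 18.7% and 19.4% under SB431542. That of RUNX1T1 was 32.1% and 41.7% under DMSO and 22.8% and 27.2% under SB431542. The groups did not overlap for any of the 3 shares, which add up to the whole and so are not independent of each other. The exact two-sided permutation p was 0.333 for each of them, again the smallest possible. The ratio of CBFA2T2 to RUNX1T1 FPKM overlapped between the groups, at 1.0 and 0.700 under DMSO and 0.820 and 0.713 under SB431542. RUNX1 exceeded RUNX1T1 by 1.03 and 1.45 times in the DMSO libraries and by 2.52 and 3.24 times in the SB libraries.

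**Figure D3:**
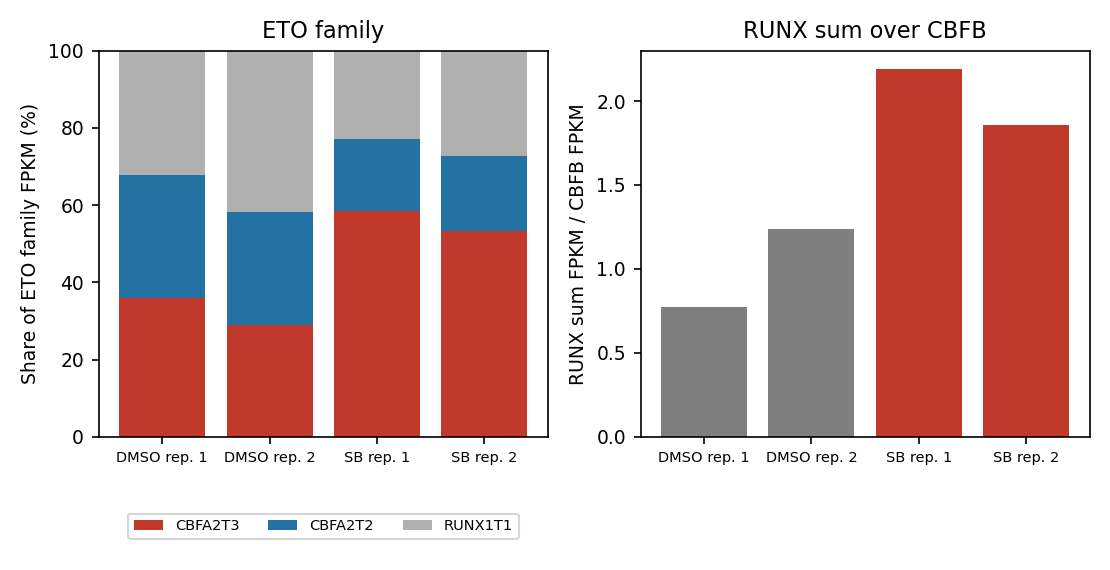
Left, stacked bars of the share of ETO family FPKM held by CBFA2T3 (red), CBFA2T2 (blue) and RUNX1T1 (grey) in each library, in percent. Right, summed RUNX FPKM divided by CBFB FPKM in each library. The red part grows from 35.9% and 29% to 58.4% and 53.4%, and the ratio from 0.772 and 1.24 to 2.19 and 1.86.

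All 7 members were higher in replicate 1 than in replicate 2 under both treatments. On log2(FPKM + 1), averaged over the treatments, replicate 1 exceeded replicate 2 by 1.22 for RUNX3, 1.15 for CBFA2T3, 0.96 for CBFA2T2, 0.63 for RUNX1T1, 0.49 for CBFB and 0.22 for RUNX1. The median size of this difference over all tested genes was 0.25, and the differences of RUNX3, CBFA2T3 and CBFA2T2 were larger in size than those of 98.0%, 97.6% and 95.9% of genes. The libraries also differed by replicate number in mitochondrial RNA (5.88% and 6.64% of summed FPKM in replicate 1, 9.92% and 10.2% in replicate 2). Across the 13695 tested genes with a GC content, the replicate difference had a Spearman's rho of 0.65 with transcript GC content, as a description across genes that share their libraries. The median replicate difference rose from -0.31 in genes under 40% GC to 0.63 in genes of at least 65% GC. CBFA2T3, with 65% GC, exceeded 86.7% of the genes in its GC range, and CBFA2T2, with 50.4% GC, exceeded 98.7%. All 6 tested members were above the median of their GC range. The part of GC content or of any other difference between the replicates in the members' values was not tested.

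**Figure D4:**
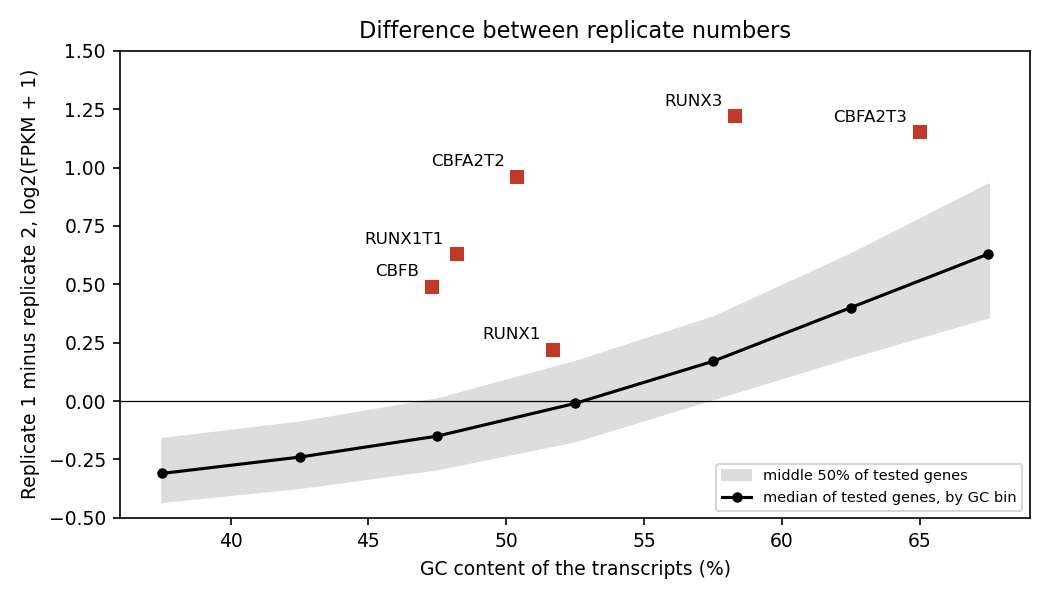
Replicate 1 minus replicate 2 on log2(FPKM + 1), averaged over the treatments, against transcript GC content in percent, with the median (line) and middle 50% (grey) of tested genes by GC range and the 6 tested members as squares. All 6 squares lie above the line, with RUNX1 closest to 0 at 0.22 and RUNX3 farthest at 1.22.

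Genes known to work with the members, or to be controlled by them, were read in 8 lists holding 94 genes, of which 70 were tested. Over these, 0 passed an adjusted limma p of 0.05 and 16 had an unadjusted p under 0.05, against 9.96% of all tested genes. For cofactors of RUNX proteins, 13 of 13 genes were tested, with a median difference of 0.02 against 0.04 over all genes. HIPK2, a kinase that phosphorylates RUNX1 and EP300, stood at 21.8 and 18.5 FPKM under DMSO and at 39.5 and 30.2 FPKM under SB431542 (log2 difference 0.75, adjusted p = 0.34). The histone methyltransferase SUV39H1 followed at 0.46. The lowest were the Groucho corepressors TLE2 at -1.64 and TLE3 at -0.24, and TLE2 overlapped between the groups.

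The 10 genes of the NCOR and HDAC complexes that ETO proteins recruit had a median difference of 0.15, and their differences spanned only -0.25 (SIN3B) to 0.26 (NCOR1), with GPS2 at 0.22 and TBL1XR1 at -0.16. Of the 16 genes of the TAL1 complex that CBFA2T3 joins, all were tested, and their median was 0.06. GFI1B acts as a transcriptional repressor in the erythroid and megakaryocytic lineages. It stood at 28.2 and 21.8 FPKM under DMSO and at 76.3 and 64.5 FPKM under SB431542 (log2 difference 1.47, adjusted p = 0.117). GATA1 was at 0.58, TCF4 at -0.22 and IRF2BP2, which works with CBFA2T3 in repression, at -0.29. The DNA-binding core gene TAL1 was at 0.37 and its bridging partner LDB1 at -0.06.

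Among 12 tested genes listed as regulators of RUNX1 in endothelium, the median was 0.16. SPI1, which is also listed below as a target of RUNX1 in blood, was highest at 1.14. It stood at 55.4 and 26.2 FPKM under DMSO and at 113 and 63.9 FPKM under SB431542. ETV6 followed at 0.46. The Notch receptor NOTCH1 was lowest at -0.79 (adjusted p = 0.719), followed by the ETS factor ERG at -0.22.

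The list nearest to RUNX1 in function, its known targets in blood, had the highest median of the 8 lists, 0.58 over 16 tested of 22 genes. Of these 16, 11 stood higher and 3 stood lower in both SB libraries than in both DMSO libraries, against 21.5% and 16.0% of all tested genes. An unadjusted limma p under 0.05 was found for 9, against 9.96% of all tested genes. The list was chosen with earlier results of these data known, and does not separate genes that RUNX1 raises from those it lowers. It shares SPI1 and GFI1B with the lists above, KLF1 with the erythroid genes below, and PF4, CSF1R, ITGA2B, KLF1 and MPO with the markers below. It is therefore not a separate measure of RUNX1 activity. The platelet chemokine gene PF4 stood at 32.6 and 49.7 FPKM under DMSO and at 199 and 322 FPKM under SB431542 (log2 difference 2.62, adjusted p = 0.0969). The macrophage growth factor receptor gene CSF1R stood at 2.77 and 1.83 FPKM and at 14.4 and 12.5 FPKM (2.14, adjusted p = 0.0753). The repressor GFI1, which silences endothelial genes as blood emerges, went the other way, at 13.7 and 11.3 FPKM under DMSO and 4.47 and 4.32 FPKM under SB431542 (-1.32, adjusted p = 0.109). MYL9, which RUNX1 acts on in megakaryocytes, was at -0.20. Other blood targets stayed under 1 FPKM in every library, as for 6 of the 22, and the neutrophil gene ELANE and the cytokine gene IL3 were listed at 0 in all 4.

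Targets of RUNX2 in bone mostly had low values: 6 of 11 stayed under 1 FPKM in every library, and IBSP and MMP13 were listed at 0 in all. The 4 tested had a median difference of -0.89, the lowest of the 8 lists. PTH1R and ALPL, between which that median lies, passed the filter only through the DMSO group. Their means were 2.22 and 1.76 FPKM there and 0.643 and 0.516 FPKM under SB431542. A negative difference was thus built into their selection, and nothing is drawn from the median. The collagen gene COL1A1 stood at 107 and 78.5 FPKM under DMSO and at 17.1 and 14.8 FPKM under SB431542 (log2 difference -2.46, adjusted p = 0.0646), PTH1R was at -0.96 and ALPL at -0.82. Of 9 targets of RUNX3 in lymphocytes, 7 stayed under 1 FPKM everywhere, and the tested ITGAE and ZBTB7B were at 0.21 and 0.14. Of the 7 erythroid genes bound with CBFA2T3, 4 were tested. ALAS2, which starts heme synthesis, stood at 53.3 and 46.4 FPKM under DMSO and at 11.7 and 10.7 FPKM under SB431542 (-2.06, adjusted p = 0.0605), GYPB was at 0.20 and KLF1, the erythroid activator, at 0.08.

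**Figure D5:**
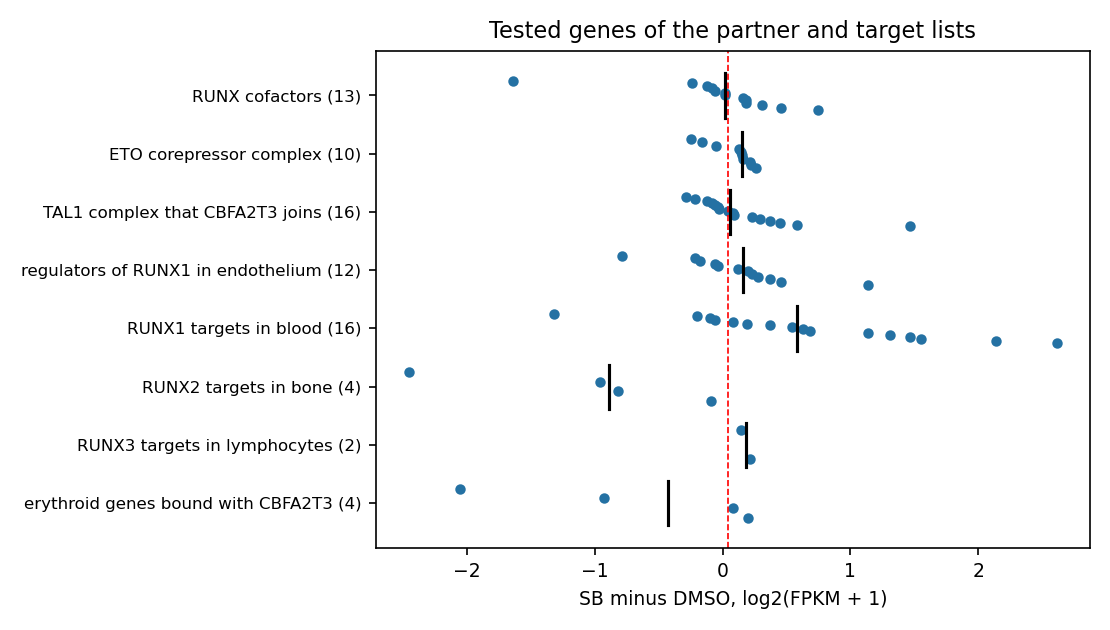
SB minus DMSO on log2(FPKM + 1) for each tested gene of the 8 lists (points, number tested in brackets), with the list median as a black bar and the median of all tested genes (0.04) as a dashed line. RUNX1 targets in blood have the highest bar (0.58), the ETO corepressor complex stays between -0.25 and 0.26, and RUNX2 targets in bone have the lowest bar (-0.89). That lowest bar lies between PTH1R and ALPL, which passed the filter only through the DMSO group.

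Markers of several cell types differed between the groups beside RUNX1. Over all tested genes, 21.5% stood higher and 16.0% lower in both SB libraries than in both DMSO libraries. Of 8 hematopoietic markers 7 were tested, and all 7 stood higher in both SB libraries, with a sum of 207 to 244 FPKM under DMSO and 373 to 417 FPKM under SB431542. The untested pan-leukocyte gene PTPRC was also higher in both SB libraries, but stayed at or under 0.202 FPKM in every library. Megakaryocyte markers summed to 146 to 162 FPKM under DMSO and 489 to 627 FPKM under SB431542, with 7 of 7 higher in both SB libraries. Myeloid markers summed to 95.3 to 118 FPKM and 258 to 303 FPKM, with 5 of 5 tested higher in both SB libraries. Erythroid markers went the other way, with sums of 235 to 277 FPKM under DMSO and 83.5 to 99.3 FPKM under SB431542, 4 of 5 tested lower in both SB libraries and a median log2 difference of -1.29. The 8 endothelial markers summed to 1500 to 1670 FPKM and 1400 to 1530 FPKM. Mesenchymal markers summed to 316 to 354 FPKM and 169 to 171 FPKM, and endoderm and liver markers to 276 to 312 FPKM and 27.3 to 30.7 FPKM. Of the 5 tested endoderm genes, 4 passed the adjusted test as lower. No tested hematopoietic, megakaryocyte, myeloid, erythroid, endothelial or mesenchymal marker passed that test. The highest value of any of the 7 lymphoid markers was 2.28 FPKM (NKG7). Pluripotent, cardiac, neural and bone markers were also read. Of 3 tested pluripotent markers, 2 stood higher in both SB libraries, and the median log2 difference was 0.59. The pluripotent gene POU5F1 passed the filter only through the SB group (means of 0.458 FPKM under DMSO and 1.42 FPKM under SB431542). Cardiac, neural and bone lists had 3, 1 and 1 tested genes. The part of a changed cell makeup in the RUNX1 and ETO family values was not tested.

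The genes whose pattern over the 4 libraries lay nearest to each tested member were found by Euclidean distance on centred log2(FPKM + 1), among 10008 genes with a mean of at least 5 FPKM (10009 for RUNX3). Nearest to RUNX1 were RASGRP4, GINS4 and VAMP8, at distances of 0.0929, 0.0964 and 0.11. Nearest to CBFA2T3 were FERMT3, FOSB and ARHGAP45, at larger distances of 0.238, 0.249 and 0.281. For CBFB they were CAMSAP1, CD37 and KIF3C, and for RUNX1T1 PLXNB2, TBRG1 and PLD2. For RUNX3 they were PHC3, KSR1 and CES2. CBFA2T2 had ADAMTS7, RN7SL3 and ZNF467 nearest, and RN7SL3 is a signal recognition particle RNA, a class that made up 4.45% and 3.96% of summed FPKM in replicate 1 and 1.4% and 1.55% in replicate 2. With 4 libraries, likeness of patterns is a description only.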

How the data were processed

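The deposited table holds FPKM, which the authors scaled to transcript length and library size, in 58365 rows and 1 column per library, with no scaling between libraries given in the sources used here. The submitters' processing notes name BWA, Bowtie, RSEM and the build hg19, without roles, whereas 95.5% of the identifiers were found in GENCODE 29 (GRCh38), 99.8% of them at the same position, so coordinates are on GRCh38, counted from 1. The study does not state a test across genes for these data. Here, log2(FPKM + 1) was compared between 2 SB and 2 DMSO libraries with limma 3.58.1 in R 4.3.3 (empirical Bayes with trend, group as the only term, two-sided, Benjamini-Hochberg over the 14909 genes whose mean reached 1 FPKM in either group, threshold 0.05). The pseudocount of 1 understates changes of low genes. The fit was tested on simulated data. Members without a test are described by their values.

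The members and the gene lists were chosen with earlier results of these data known. The text names all 7 members; of each list, the genes with an adjusted p under 0.05, otherwise the 2 highest and the 2 lowest by log2 difference; genes whose role a sentence on a member needs; and the 3 nearest genes of each tested member. Other genes (PECAM1, PTPRC, ELANE, IL3, IBSP, MMP13 and NKG7) were named after their values were seen, and 2 genes that the rule names are not reported here. GC content is the median over a gene's coding transcripts in GENCODE 29. Values within each replicate number are given beside pooled ones, because libraries of the same number were about as alike as those of the same group. Pearson correlations on log2(FPKM + 1) were 0.9597 (replicate 1) and 0.9644 (replicate 2) within a number. Within a group they were 0.9563 (DMSO) and 0.9605 (SB). Alternatives were the replicate block, a pseudocount of 0.1, no filter, a minimum of 5 FPKM in 2 or more libraries, scaling by upper quartiles, quantile normalization, rescaling without mitochondrial and RN7SL genes, no trend, sums over all rows of a symbol and leaving out each library.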

Additional observations from a re-analysis of the deposited data

How the results depend on the processing

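The replicate number as a block in limma moved the calls most: 1564 genes (820 higher, 744 lower, 10.5% of those tested), 3 members and 19 genes of the 8 lists then passed, against 20, 0 and 0. The 3 members were RUNX1 (adjusted p = 0.0183), CBFA2T3 (0.00907) and CBFA2T2 (0.0366), while RUNX1T1 had 0.0604. The labels do not say that a number marks a shared culture, and with 2 pairs the correlation of 0.53 between same-numbered libraries in their deviations from the group means does not settle it. Quantile normalization gave 31 genes, and no filter gave 0 (2739 at an unadjusted p under 0.05, with the same tool). Leaving out each library gave 0 (without DMSO replicate 1) to 14 genes, 0 members and 0 list genes called. The count of members whose groups did not overlap is not compared for these fits, because a lone library overlaps less often. Of the lists, ALAS2 passed with at least 5 FPKM in at least 2 libraries (1 gene), and COL1A1 with ALAS2 under quantile normalization, upper-quartile scaling or rescaling (2 genes each). Signs of log2 differences turned only on leaving out a library: CBFB to 0.16 (range from -0.65) and CBFA2T2 to 0.01 (from -1.02) without DMSO replicate 1, RUNX3 to -0.38 without DMSO replicate 2 and to -0.44 without SB replicate 1 (up to 0.84), and the RUNX1 share difference to -0.575 without DMSO replicate 1 (highest 4.55). The difference in CBFA2T3 share stayed between 20.0 and 26.9 percentage points, and that in the RUNX to CBFB ratio between 0.790 and 1.26. Of 71 alternative values of single members, 64 kept their sign and their side of the threshold, 4 turned and 3 were the calls under the block. The cause of these changes was not tested. Depth in reads is unknown, so counting error of RUNX2 and RUNX3 cannot be given.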

Other observations

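The study lists a pair of RT-PCR primers under RUNX1. Both are shown because they match different genes.
Forward: AACGTGCATTCTGAGGGCTGTCAT
Reverse: CCTGGAGGAGAAGAGGAAAGAGA
In GENCODE release 29 the forward primer (24 bases) matched 2 of the 17 RUNX1 transcripts exactly, on the strand opposite to the transcript. The reverse primer (23 bases) matched no RUNX1 transcript, and matched 11 of the 14 transcripts of RPL13A, a ribosomal protein gene, on the transcript's strand, as well as transcripts of RPL13A pseudogenes. Only exact matches to annotated transcripts were searched, and the RNA-seq values above do not depend on these primers.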
